A study of Mus musculus with 11 samples.

Results

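The genes described here are interferon-induced GTPases and antiviral effectors, measured in colon tissue by 3′ mRNA sequencing after azoxymethane and dextran sodium sulfate (AOM/DSS) treatment and under naive conditions. They were chosen by gene name, and 78 of the 7868 genes in the table matched. AOM/DSS tissue came from 7 female wildtype mice, which received AOM, a carcinogen, at 10 mg/kg by intraperitoneal injection on day 0. From day 7 these mice drank 1.5% DSS, which injures the colon lining, in 3 cycles, each with 5 days of DSS and then 16 days without, and were sacrificed on day 70. Naive tissue came from 4 female wildtype mice kept for the same time. The study names its wildtype mice as C57BL/6J and gives age ranges for other groups or for its mice as a whole, but the labels tie neither strain nor age to these 11 mice. The AOM/DSS tissue was tumor, described by the study as full-thickness, and the table heading uses the same word for naive colon. How much muscle each sample held was not measured. The study addressed enteric glia and macrophages in colorectal cancer, and this comparison sets tumor tissue against naive colon.

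Interferons are secreted proteins that put cells into an antiviral and antimicrobial state. Type I interferons act through a complex that holds STAT2 and IRF9 on a promoter element called the interferon-stimulated response element (ISRE). Interferon-γ, a product of T and NK cells, acts mainly on the gamma-activated site (GAS), and induces IRF1, which again binds ISRE-type letters. In the gut these genes are known from infection, from colitis and from epithelium in contact with T cells.

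Each gene has 1 value per group, the authors' mean on their normalized scale of 3′ read counts. Values of single mice were not analysed here, so no mean carries an SD, no test was run, and "higher" or "lower" below compares means alone. The table lists genes with an unadjusted p of up to 0.05 in the authors' own comparison, so each listed gene was already selected on this contrast, and counts over listed genes describe the table. Of 106 protein-coding genes in the GENCODE M21 annotation that match the rule, 77 are listed (72.6%), against 30.6% of all protein-coding genes. The other listed member, Ifi203-ps, is annotated as a pseudogene. A gene that is not listed is not called unchanged. Genes with a mean under 0.001 are described as listed at 0. Because 3′ sequencing counts transcript ends, levels of different genes are set side by side without a length.

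Nearly all listed members had higher means in AOM/DSS than in naive tissue. The AOM/DSS mean was at least 2-fold above the naive mean for 65 of 78 members (83.3%), against 31.7% of all 7868 genes in the table. It was at least 4-fold above for 40 members (51.3%), against 19.5% of all genes. No member was at least 2-fold lower, against 17.1% of all genes. The mean was higher by any amount for 76 members (97.4%), against 57.3% of all genes, and only Irf2 and Ifi27 had a lower mean in AOM/DSS. It was at least 1.5-fold above for 73 members (93.6%), against 43.7% of all genes. The median log2 fold of the 78 members was 2.11, against 0.44 for all genes in the table. Without the 3 members listed at 0 in naive tissue (Ifi202b, Ifi214 and Ifitm7) the median was 1.99. The means of all members summed to 5831 in AOM/DSS and 1658 in naive tissue, which was 1.05% of the summed means of the table in AOM/DSS and 0.303% in naive tissue. In bulk tissue, more cells of a type and more RNA per cell cannot be told apart.

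**Figure D1:**
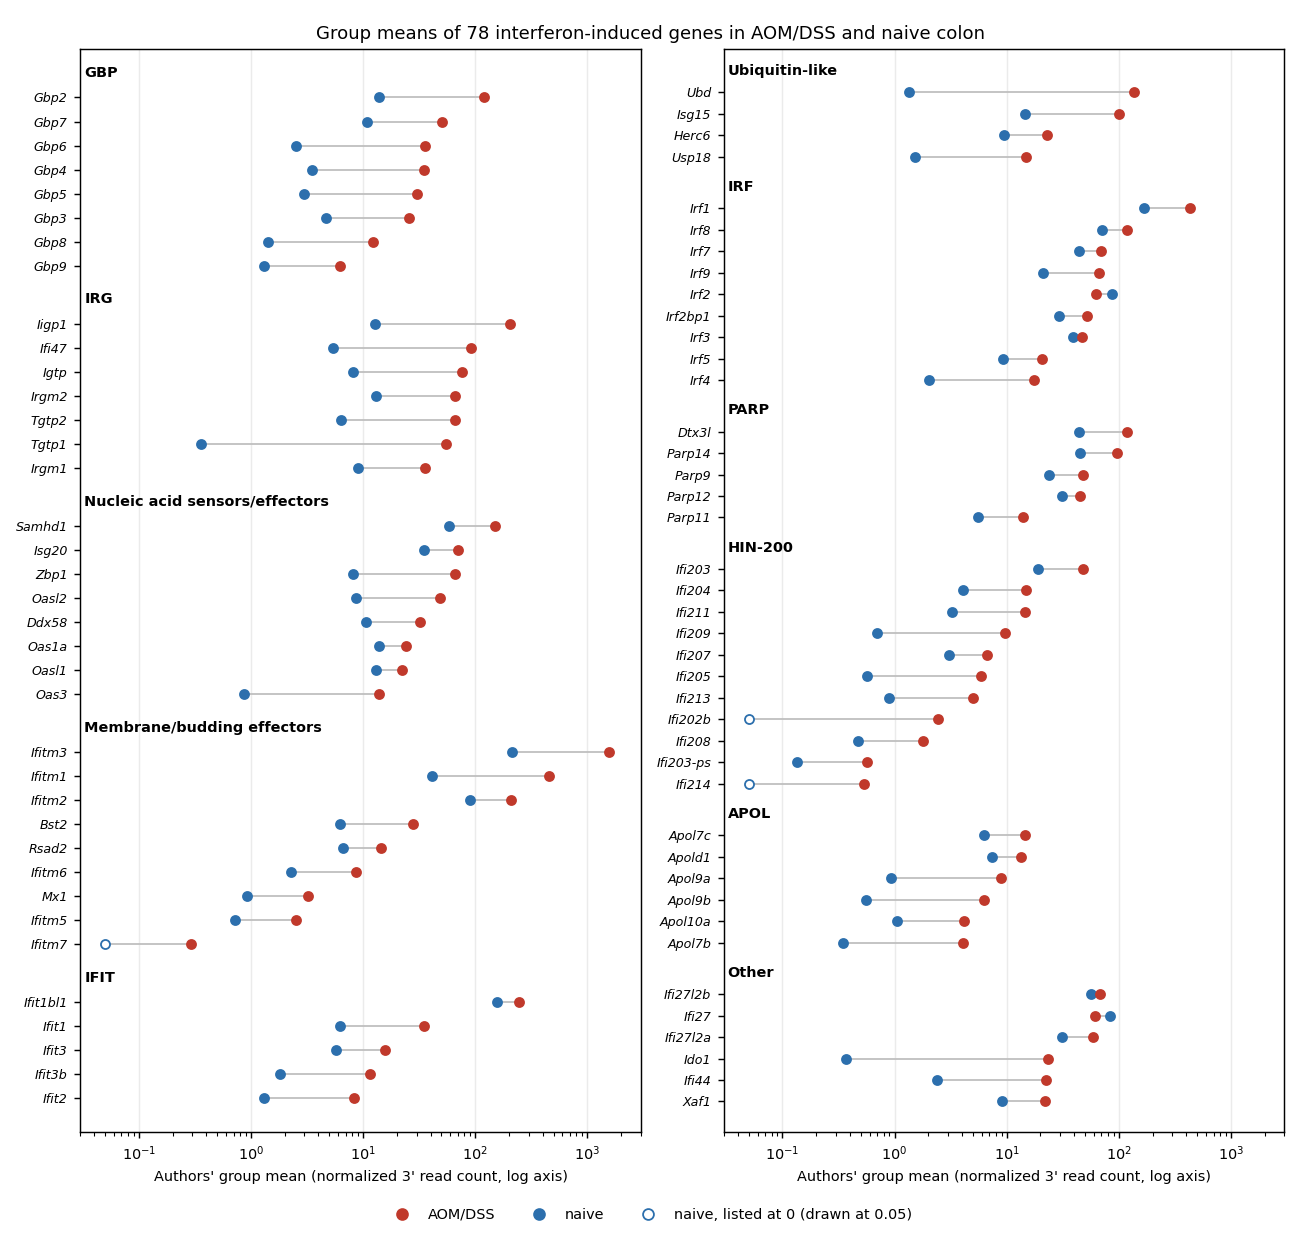
Authors' group means of the 78 listed members, grouped by role, with the normalized 3′ read count on a log axis; red points are AOM/DSS (7 mice), blue points naive (4 mice), and open points, drawn at 0.05, mark a naive mean listed at 0. The red point lies to the right of the blue one for 76 genes, and to its left for Irf2 and Ifi27.

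Several markers of immune cells were higher in the same tissue. Of all genes in the table, 57.3% were higher by any amount and 31.7% at least 2-fold higher. All 6 T cell markers were listed and at least 2-fold higher, with a summed mean of 53.3 in AOM/DSS and 7.39 in naive tissue, and Cd8a was listed at 0 in naive tissue. Of 7 NK and cytotoxic markers, 5 were listed and higher (summed mean 17.5 in AOM/DSS against 2.39 in naive), Gzma was listed at 0 in naive tissue, and Ncr1 and Prf1 were not listed. Of 8 macrophage markers, 6 were higher and Mertk lower (summed mean 1010 in AOM/DSS against 493 in naive). Neutrophil markers were higher for 5 of 6 (910.4 in AOM/DSS against 5.86 in naive), and those of B and plasma cells for 6 of 6 (1759 in AOM/DSS against 167 in naive). Of 3 plasmacytoid dendritic cell markers, Tcf4 alone was listed (287 in AOM/DSS against 161 in naive), and Siglech and Ccr9 were not. Epithelial markers were lower for 3 of 7, the others not being listed (4359 in AOM/DSS against 6811 in naive), and smooth muscle markers lower for 5 of 5 (3936 in AOM/DSS against 9647 in naive). Endothelial markers were higher for 3 of 4 (142 in AOM/DSS against 75.7 in naive) and fibroblast markers for 2 of 4 (1353 in AOM/DSS against 872 in naive). Values in parentheses are sums over the listed markers, so genes with high means weigh most. Jchain alone had 1560 in AOM/DSS and 156 in naive tissue. Of the neutrophil markers, S100a8 had 451 in AOM/DSS against 1.50 in naive, and S100a9 397 in AOM/DSS against 1.08 in naive. The part of these cells in the interferon-induced means was not tested.

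Guanylate-binding proteins (GBPs) are large GTPases that coat intracellular bacteria and the vacuoles of parasites, and interferon-γ is their best known inducer. All 8 listed GBP genes were at least 4-fold higher in AOM/DSS, against 19.5% of all genes in the table. Their folds lay between 4.62 for Gbp7 and 14.2 for Gbp6. Gbp2 had the highest level of the group, with a mean of 119 in AOM/DSS and 13.7 in naive tissue, 8.64-fold higher. Gbp6 stood at 35.7 in AOM/DSS and 2.52 in naive tissue. Gbp4 stood at 35.1 in AOM/DSS against 3.51 in naive (9.998-fold) and Gbp5, which is known to promote inflammasome assembly, at 30.3 in AOM/DSS against 2.99 in naive (10.1-fold). Gbp7 was at 50.3 in AOM/DSS and 10.9 in naive tissue, and Gbp3 at 25.9 in AOM/DSS against 4.71 in naive (5.50-fold). The smallest means belonged to Gbp8 (12.3 in AOM/DSS against 1.41 in naive) and Gbp9 (6.17 in AOM/DSS against 1.31 in naive). Gbp2b and Gbp10 were not listed. The family lies in 2 clusters. Gbp2, Gbp3, Gbp5 and Gbp7 lie at chr3:142493978-142638008 (mm10, GENCODE M21), with folds of 4.62 to 10.1, and Gbp4, Gbp6, Gbp8 and Gbp9 at chr5:105014150-105293698, with folds of 4.72 to 14.2. In the annotation Gbp4, Gbp8 and Gbp9 overlap on one strand, with gene ends apart at chr5:105115767, chr5:105014150 and chr5:105077630. Whether 3′ reads were shared between them was not tested. The 3 means together came to 53.5 in AOM/DSS and 6.23 in naive tissue (8.60-fold).

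Promoter windows from RefSeq (build GRCm38.p6), from 250 bases before to 50 bases after the start site, were searched for 2 motifs. The ISRE-type motif was GAAA, any 2 bases and GAAA, on either strand. The GAS-type motif was TTC, any 3 bases and GAA, which reads the same on both strands. All 4 GBP genes with a window, Gbp2, Gbp3, Gbp5 and Gbp7, held an ISRE match, against 3.99% of 27025 genes. In Gbp2, the member of this family with the highest mean, the match began 59 bases before the start site and lay on the opposite strand. Its window is shown with the match in capitals, which on this strand reads TTTC, 2 bases and TTTC.
Gbp2, chr3:142620413-142620712, plus strand: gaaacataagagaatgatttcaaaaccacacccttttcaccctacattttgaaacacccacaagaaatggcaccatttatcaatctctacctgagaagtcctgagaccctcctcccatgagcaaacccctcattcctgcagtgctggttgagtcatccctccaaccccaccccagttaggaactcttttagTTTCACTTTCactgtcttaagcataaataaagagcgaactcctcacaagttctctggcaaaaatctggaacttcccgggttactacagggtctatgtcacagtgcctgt

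Immunity-related GTPases (IRGs) are smaller relatives of the GBPs that attack parasite vacuoles in mice. The 7 listed IRG genes were 3.95-fold (Irgm1) to 152-fold (Tgtp1) higher in AOM/DSS, with a median of 10.4-fold. Iigp1, which encodes Irga6, a loader of parasite vacuoles, had the highest level, 206 in AOM/DSS against 12.7 in naive tissue (16.2-fold). Ifi47, which encodes Irgd, followed at 92.6 in AOM/DSS against 5.41 in naive (17.1-fold). The regulatory IRGs, which keep the others inactive on the cell's own membranes, showed smaller differences. Igtp, or Irgm3, stood at 76.5 in AOM/DSS and 8.15 in naive tissue (9.39-fold), Irgm2 at 66.0 in AOM/DSS against 13.1 in naive (5.02-fold) and Irgm1 at 35.5 in AOM/DSS against 8.99 in naive. Igtp and Irgm2 overlap on one strand in the annotation, and their means together were 142 in AOM/DSS and 21.3 in naive tissue (6.69-fold). Tgtp1 stood at 54.7 in AOM/DSS and 0.360 in naive tissue, and Tgtp2 at 65.8 in AOM/DSS against 6.30 in naive (10.4-fold). The last 500 bases of the transcripts of Tgtp1 and Tgtp2 are identical, so how reads were split between them is uncertain. Their means together came to 120.5 in AOM/DSS and 6.66 in naive tissue, 18.1-fold higher. The log2 fold of Tgtp1 alone was 7.25, and 5.36 after adding 1 to each mean.

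Of 6 IRG genes with a promoter window, 5 held an ISRE match and 4 a GAS match. In Igtp, Irgm2, Tgtp1 and Tgtp2 the GAS match began 11 bases before the ISRE match, with 2 bases between them. This arrangement, searched for after it was noticed in these 4 genes, occurred in 5 of 27025 genes (0.0185%). The other gene, Gm12185, has the RefSeq synonym Irgb2b1 and stood at 1.71 in AOM/DSS and 0.117 in naive tissue (14.6-fold). These genes are copies of one family, so their windows are not independent. The 40 bases round both matches are shown to compare the 4 members, with GAS and ISRE matches in capitals.
Igtp, chr11:58199502-58199541, plus strand: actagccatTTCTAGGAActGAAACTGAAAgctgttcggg
Irgm2, chr11:58214893-58214932, plus strand: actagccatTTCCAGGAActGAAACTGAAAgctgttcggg
Tgtp1, chr11:48992304-48992343, minus strand: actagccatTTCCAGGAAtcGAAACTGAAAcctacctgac
Tgtp2, chr11:49064263-49064302, minus strand: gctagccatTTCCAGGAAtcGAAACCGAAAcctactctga

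Of 8 listed sensors and effectors of nucleic acids, 6 were at least 2-fold higher in AOM/DSS, against 31.7% of all genes in the table. The range was wide. Zbp1, a sensor of Z-form nucleic acid that can start necroptosis, stood at 66.1 in AOM/DSS and 8.05 in naive tissue (8.21-fold). Ddx58, which encodes the RNA sensor RIG-I, was at 31.9 in AOM/DSS against 10.7 in naive (2.98-fold). The related sensors Ifih1 (MDA5) and Dhx58 (LGP2) and the RNA-activated kinase Eif2ak2 (PKR) were not listed. The OAS proteins make 2′-5′ oligoadenylate and thereby activate RNase L. Of these, Oas3 had 13.8 in AOM/DSS and 0.864 in naive tissue (16.0-fold), and Oas1a had 24.2 in AOM/DSS against 13.8 in naive (1.75-fold). Oas2 was not listed. The OAS-like genes also differed from one another, Oasl2 standing at 48.9 in AOM/DSS against 8.68 in naive (5.63-fold) and Oasl1 at 22.1 in AOM/DSS against 13.0 in naive (1.70-fold). Samhd1, a dNTP hydrolase that restricts retroviruses, had the highest level of this group, with 149 in AOM/DSS and 58.6 in naive tissue (2.54-fold), and the exonuclease Isg20 had 70.4 in AOM/DSS against 34.9 in naive (2.02-fold). Oas1a and Oas1g are 97.4% identical over 383 bases of their transcript ends, and the ends of Oas3 and Samhd1 also resemble other genes over part of their length. The log2 fold of Oas3 was 4.00, and 2.99 after adding 1 to each mean.

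The effectors that act at membranes held the members with the highest levels. IFITM proteins block the fusion of viruses with cell membranes. Ifitm3 had the highest mean of all 78 members, 1560.4 in AOM/DSS and 214 in naive tissue (7.31-fold). Ifitm1 had the second highest, 451 in AOM/DSS against 41.4 in naive (10.9-fold), and Ifitm2 stood at 208 in AOM/DSS against 90.0 in naive (2.31-fold). Ifitm6 stood at 8.60 in AOM/DSS against 2.26 in naive, Ifitm5, known from bone, at 2.53 in AOM/DSS against 0.723 in naive, and Ifitm7 at 0.289 in AOM/DSS, listed at 0 in naive tissue. Ifitm1, Ifitm2 and Ifitm5 share near-identical transcript ends with other annotated genes, and their reads may be split. Bst2, or tetherin, which holds budding virions at the cell surface, stood at 27.9 in AOM/DSS against 6.18 in naive (4.52-fold). Rsad2, or viperin, had 14.5 in AOM/DSS and 6.59 in naive tissue (2.20-fold), and Mx1, a dynamin-like GTPase, 3.26 in AOM/DSS against 0.924 in naive (3.52-fold).

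IFIT proteins bind foreign RNA and hinder its translation. The 5 listed IFIT genes lie at chr19:34550694-34650009, and 4 of them were at least 2-fold higher in AOM/DSS, against 31.7% of all genes in the table. Ifit1 stood at 35.0 in AOM/DSS and 6.19 in naive tissue (5.65-fold), Ifit3b at 11.4 in AOM/DSS against 1.83 in naive (6.24-fold) and Ifit2 at 8.32 in AOM/DSS against 1.30 in naive (6.39-fold). Ifit3, the neighbor of Ifit3b, differed less, at 15.7 in AOM/DSS against 5.70 in naive (2.76-fold). Ifit1bl1 was far above the other IFIT genes in both groups, with 247 in AOM/DSS and 157 in naive tissue (1.58-fold). Ifit3 and Ifit3b carry the same 30 bases round the ISRE match nearest their start sites, 122 bases before it in Ifit3 and 154 bases before it in Ifit3b. They are shown beside Ifit1, with the match in capitals and read on the strand that starts the match with GAAA.
Ifit1, chr19:34640794-34640823, minus strand: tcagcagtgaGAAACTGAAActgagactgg
Ifit3, chr19:34583397-34583426, minus strand: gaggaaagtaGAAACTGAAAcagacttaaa
Ifit3b, chr19:34607793-34607822, minus strand: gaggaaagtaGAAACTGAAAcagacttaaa

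All 4 genes of ubiquitin-like modification were at least 2-fold higher in AOM/DSS, against 31.7% of all genes in the table. Ubd, which encodes FAT10, a ubiquitin-like protein that targets proteins to the proteasome, stood at 138 in AOM/DSS and 1.35 in naive tissue, 102.5-fold higher. Its log2 fold was 6.68, and 5.89 after adding 1 to each mean. Isg15, a ubiquitin-like protein that is joined to other proteins, stood at 99.6 in AOM/DSS against 14.6 in naive (6.84-fold). Usp18, which removes ISG15 and also dampens the type I receptor, had 14.9 in AOM/DSS and 1.53 in naive tissue (9.73-fold). Herc6, an ISG15 ligase in mice, had 22.7 in AOM/DSS against 9.51 in naive (2.39-fold). The Isg15 window held ISRE letters 3 times in a row, overlapping one another, while that of Ubd held neither motif. The Isg15 window is shown with the overlapping matches in capitals.
Isg15, chr4:156200769-156201068, minus strand: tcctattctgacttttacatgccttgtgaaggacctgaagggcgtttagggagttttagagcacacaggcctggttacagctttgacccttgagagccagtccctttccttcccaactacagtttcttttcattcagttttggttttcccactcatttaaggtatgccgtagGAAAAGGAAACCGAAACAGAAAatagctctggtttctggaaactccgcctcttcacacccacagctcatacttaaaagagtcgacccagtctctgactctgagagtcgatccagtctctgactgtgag

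Interferon regulatory factors (IRFs) are transcription factors that start and shape the interferon response. The 9 listed genes with an Irf name had a median fold of 1.75, against 8.68 for GBP and 10.4 for IRG genes. That median is the fold of Irf2bp1, described below. Of these 9, 4 were at least 2-fold higher in AOM/DSS, against 31.7% of all genes in the table. Irf1 had the highest level, 429 in AOM/DSS and 168 in naive tissue (2.55-fold). Irf9, the DNA-binding partner of STAT2, stood at 67.1 in AOM/DSS against 21.2 in naive (3.16-fold). Irf4, a factor of plasma cells and activated lymphocytes, showed the largest fold of the group, 17.6 in AOM/DSS against 2.05 in naive (8.58-fold). Irf5, which acts in macrophages, stood at 20.6 in AOM/DSS against 9.31 in naive (2.21-fold) and Irf8, a factor of macrophages and dendritic cells, at 119 in AOM/DSS against 70.2 in naive (1.69-fold). Irf7, which amplifies type I interferon, had 69.0 in AOM/DSS and 44.1 in naive tissue (1.57-fold), and Irf3, which starts its production, had 47.0 in AOM/DSS against 39.3 in naive (1.20-fold). Irf2bp1, matched by name, encodes a co-repressor of IRF2 and not an IRF, and stood at 51.8 in AOM/DSS against 29.5 in naive. Irf2, an antagonist of IRF1 at many promoters, had 62.8 in AOM/DSS and 86.5 in naive tissue, 1.38-fold lower.

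Irf1 had a higher and Irf2 a lower mean in AOM/DSS. Both promoter windows held a GAS match, and a link between their letters and these directions was not tested. Irf1 held a GAS match 90 bases before the start site and no ISRE match. Irf2 alone among the 9 IRF genes held an ISRE match, which lay 241 bases before its start site, next to a GAS match at 224 bases. Both windows are shown, with GAS matches in capitals in Irf1 and with ISRE and GAS matches in capitals in Irf2.
Irf1, chr11:53769764-53770063, plus strand: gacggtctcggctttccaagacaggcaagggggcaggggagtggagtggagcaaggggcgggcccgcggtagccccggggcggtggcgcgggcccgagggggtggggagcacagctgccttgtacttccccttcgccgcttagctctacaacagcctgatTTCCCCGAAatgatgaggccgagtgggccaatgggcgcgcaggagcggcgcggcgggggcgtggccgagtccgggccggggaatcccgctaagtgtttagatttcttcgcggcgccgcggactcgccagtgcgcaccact
Irf2, chr8:46739495-46739794, plus strand: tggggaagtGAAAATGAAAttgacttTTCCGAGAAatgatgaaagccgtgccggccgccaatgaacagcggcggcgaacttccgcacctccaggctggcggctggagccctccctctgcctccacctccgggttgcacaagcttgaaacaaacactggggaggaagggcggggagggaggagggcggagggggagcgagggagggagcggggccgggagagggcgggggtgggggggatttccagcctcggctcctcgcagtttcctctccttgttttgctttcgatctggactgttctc

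PARP enzymes of this group add ADP-ribose to proteins, and Dtx3l is the ubiquitin ligase partner of Parp9. All 5 listed genes were higher in AOM/DSS, against 57.3% of all genes in the table, and by at most 2.67-fold. Dtx3l stood at 119 in AOM/DSS and 44.5 in naive tissue (2.67-fold), and Parp9, which starts 681 bases away on the other strand, at 48.3 in AOM/DSS against 23.9 in naive (2.02-fold). Parp14 had 96.6 in AOM/DSS against 45.0 in naive (2.15-fold), Parp11 14.0 in AOM/DSS against 5.60 in naive (2.51-fold) and Parp12 45.1 in AOM/DSS against 31.3 in naive (1.44-fold), and Parp10 was not listed. Parp9, Dtx3l and Parp14 lie together at chr16:35832874-35972605.

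The HIN-200 genes, mouse relatives of the DNA sensors AIM2 and IFI16, form one cluster at chr1:173519717-174031810. All 11 listed members were at least 2-fold higher in AOM/DSS, against 31.7% of all genes in the table. Ifi203 had the highest level, 48.1 in AOM/DSS and 19.1 in naive tissue (2.52-fold). Ifi204 stood at 14.7 in AOM/DSS against 4.11 in naive (3.59-fold), and Ifi207 had the smallest fold, 6.71 in AOM/DSS against 3.08 in naive (2.18-fold). Ifi202b had a mean of 2.46 and Ifi214 of 0.536 in AOM/DSS, and both were listed at 0 in naive tissue. Copies in this cluster are hard to separate by 3′ reads, and Ifi204 shares 172 bases of its end with a predicted gene. Ifi205 and Ifi211 are 99.6% identical over 492 bases of their transcript ends and together came to 20.4 in AOM/DSS and 3.85 in naive tissue (5.30-fold). Both also share near-identical ends, over 308 and 300 bases, with Mndal, a listed gene that the name rule does not take. Mndal is not in this sum. Ifi209 and Ifi214, 98.8% identical over 500 bases, together came to 10.1 in AOM/DSS against 0.700 in naive (14.4-fold), and Ifi208 and Ifi213 to 6.85 in AOM/DSS against 1.36 in naive (5.02-fold).

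The apolipoprotein L genes are relatives of a human trypanosome-lytic protein. The 5 listed mouse Apol genes at chr15:77403789-77736382 were at least 2-fold higher in AOM/DSS, against 31.7% of all genes in the table. Apol7c had the highest mean, 14.7 in AOM/DSS and 6.24 in naive tissue (2.35-fold). Apol9a and Apol9b, 98.2% identical over the last 500 bases, together stood at 15.1 in AOM/DSS against 1.48 in naive (10.2-fold). Apol7b, identical to the unlisted Apol7e over 497 bases, was at 4.11 in AOM/DSS against 0.344 in naive (11.9-fold) and Apol10a at 4.13 in AOM/DSS against 1.04 in naive (3.96-fold), and 7 other annotated Apol genes were not listed. Apold1, which the rule takes by name, is an endothelial gene outside this cluster, and stood at 13.5 in AOM/DSS against 7.33 in naive (1.84-fold).

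The remaining 6 members ranged from 0.735-fold to 63.7-fold. Ido1, which degrades tryptophan and restrains T cells, stood at 23.3 in AOM/DSS and 0.366 in naive tissue, 63.7-fold higher, with a log2 fold of 5.99, and of 4.15 after adding 1 to each mean. Ifi44 was at 22.6 in AOM/DSS against 2.38 in naive (9.51-fold) and the pro-apoptotic Xaf1 at 21.9 in AOM/DSS against 9.09 in naive (2.41-fold). The 3 genes of the Ifi27 family at chr12:103434211-103457223 stayed within 2-fold. Ifi27l2a had 58.8 in AOM/DSS and 31.0 in naive tissue (1.90-fold), Ifi27l2b had 68.5 in AOM/DSS against 56.6 in naive (1.21-fold), and Ifi27 had 61.8 in AOM/DSS against 84.0 in naive, 1.36-fold lower. Relative to the median gene of the table, Ifi27l2b and Irf3 lay slightly below it, at -0.17 and -0.18 on the log2 scale.

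**Figure D2:**
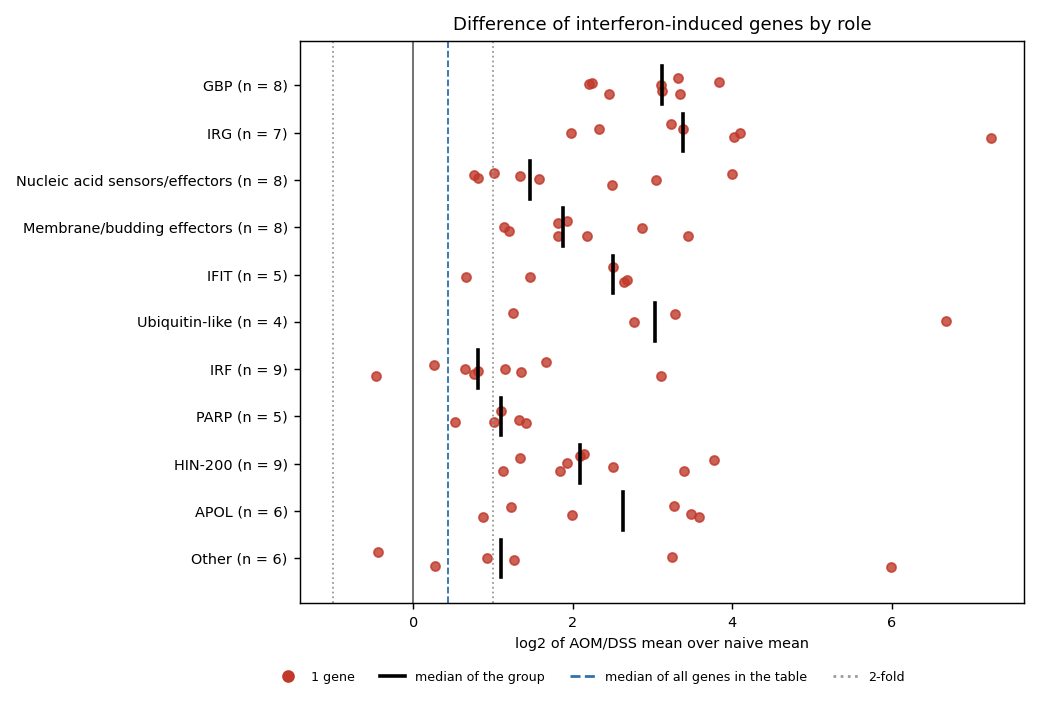
Log2 of the AOM/DSS mean over the naive mean for each listed member by role, with 1 point per gene, a black bar at the group's median, and lines at no difference, at 2-fold and at the median of all 7868 genes (0.44). The 3 members listed at 0 in naive tissue are left out. GBP and IRG genes sit between 3.95-fold and 152-fold, while the genes with an IRF name, Irf2bp1 among them, have a median of 1.75-fold.

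By role, the median fold was 10.4 for IRG genes, 8.68 for GBP, 8.28 for ubiquitin-like, 6.79 for APOL, 5.65 for IFIT and 4.24 for HIN-200 genes. It was 3.67 for membrane effectors, 2.76 for nucleic acid sensors and effectors, 2.15 for PARP genes and 1.75 for IRF genes. Groups go by name, and the APOL group includes Apold1 (1.84-fold). Without it the middle Apol gene was Apol9a, at 9.62-fold, above the GBP median. The HIN-200 median is the fold of the pseudogene Ifi203-ps, and the IRF median that of Irf2bp1. Folds within most groups overlapped those of their neighbors in the order given. The lowest folds of the GBP (4.62) and IRG genes (3.95) lay above the highest PARP fold (2.67). No order was tested. Of the 78 members, 51 lie in 12 clusters, in which neighbors are within 1 Mb of each other, so members are not independent of one another.

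Over all roles, ISRE letters were found in the promoter windows of 34 of the 62 members that have one. That share is 54.8%, against 3.99% of all genes and 3.76% of the 5458 table genes that are no members. A GAS match was held by 21 (33.9%), against 9.55% of all genes. Of 49 distinct ISRE matches, 33 began within the 100 bases before the nearest start site, and 3 overlapped a GAS match. ISRE matches were held by 7 of 9 HIN-200 genes, 4 of 6 APOL genes and 4 of 5 IFIT genes, but by 1 of 9 IRF genes. Members with an ISRE match had a median fold of 4.82 (n = 34), and those without 2.90 (n = 28), with wide overlap. Most genes with an IRF name, whose median fold was 1.75, fall in the set without a match. Motif and role were therefore not separated here, and no link of motif to fold was tested. The 16 members without a window were Zbp1, Usp18, Ido1, Mx1, Iigp1, Gbp4, Gbp6, Gbp8, Gbp9, Ifi204, Ifi203-ps, Ifi27, Ifi27l2a, Ifi27l2b, Parp9 and Parp14. A match is a run of letters and was not measured as a binding site.

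**Figure D3:**
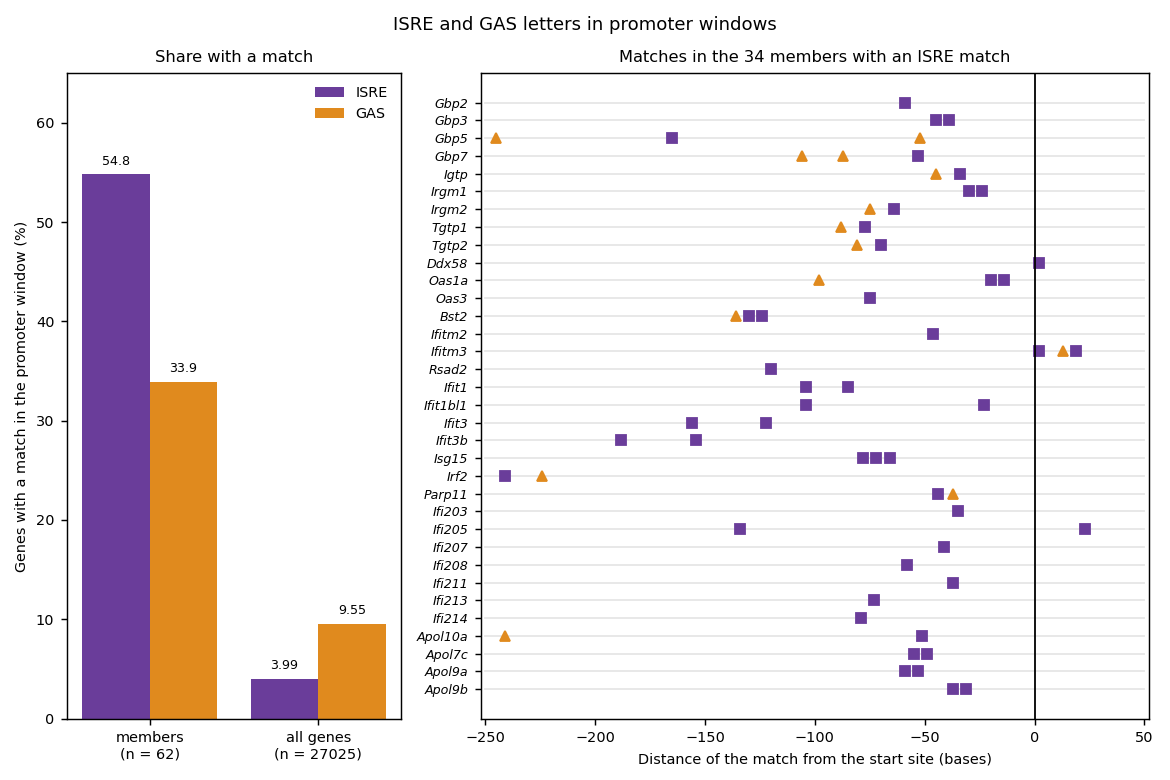
Left, percent of genes whose promoter window holds an ISRE match (purple) or a GAS match (orange), among 62 members and among 27025 genes. Right, distance in bases of each match from the nearest start site in the 34 members with an ISRE match, with ISRE as squares and GAS as triangles. Most squares lie within 100 bases before the start, and in Igtp, Irgm2, Tgtp1 and Tgtp2 a triangle sits 11 bases before the square.

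Genes that act before and beside these effectors were counted from fixed lists, which were chosen with earlier results of these data known. Of 19 interferons, receptors and signal transducers, 5 were listed, where 30.6% of all protein-coding genes were. Of the 5, 3 were at least 2-fold higher in AOM/DSS, against 31.7% of all genes in the table, and 2 lower by less than 2-fold. Ifng, the gene of interferon-γ, averaged 1.83 in AOM/DSS tissue, with naive tissue listed at 0. No type I or type III interferon of the list, such as Ifnb1 or Ifnl3, was listed. Stat2 stood at 33.0 in AOM/DSS and 13.2 in naive tissue (2.496-fold) and the type I receptor gene Ifnar2 at 37.3 in AOM/DSS against 18.5 in naive (2.01-fold). The receptor genes Ifngr1 (175 in AOM/DSS against 242 in naive) and Il10rb (39.6 in AOM/DSS against 50.8 in naive) were lower, and Jak1, Jak2 and Tyk2 were not listed. Of 15 genes of feedback and upstream sensing, 9 were listed and all 9 were higher, against 57.3% of all genes in the table. Of the 9, 4 were at least 2-fold higher, against 31.7% of all genes. Sting1, the adaptor of cytosolic DNA sensing, stood at 93.9 in AOM/DSS against 8.82 in naive (10.7-fold), while Cgas, the sensor before it, stood at 11.1 in AOM/DSS against 6.92 in naive (1.60-fold). Socs1, a feedback inhibitor of JAK kinases, stood at 26.7 in AOM/DSS and 3.93 in naive tissue (6.79-fold). Socs3 had the highest AOM/DSS mean and the largest fold of this list, 203 in AOM/DSS against 17.5 in naive (11.6-fold).

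A list of 28 further interferon-induced genes was chosen with earlier results of these data known, so its counts are no independent evidence. Of the 28, 25 were listed, where 30.6% of all protein-coding genes were. All 25 were at least 2-fold higher in AOM/DSS, against 31.7% of all genes in the table. The 25 had folds between 2.31 and 257, with a median of 4.11. They include the chemokine Cxcl9 (70.6 in AOM/DSS against 0.275 in naive), the MHC regulators Nlrc5 (21.3 in AOM/DSS against 1.43 in naive, 14.9-fold) and Ciita (20.9 in AOM/DSS against 3.06 in naive, 6.82-fold), and Cd274, which encodes PD-L1 (20.7 in AOM/DSS against 2.82 in naive, 7.32-fold). Tap2, Trim21 and Nmi were not listed. The median gene of the table was 1.36-fold higher in AOM/DSS.

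**Figure D4:**
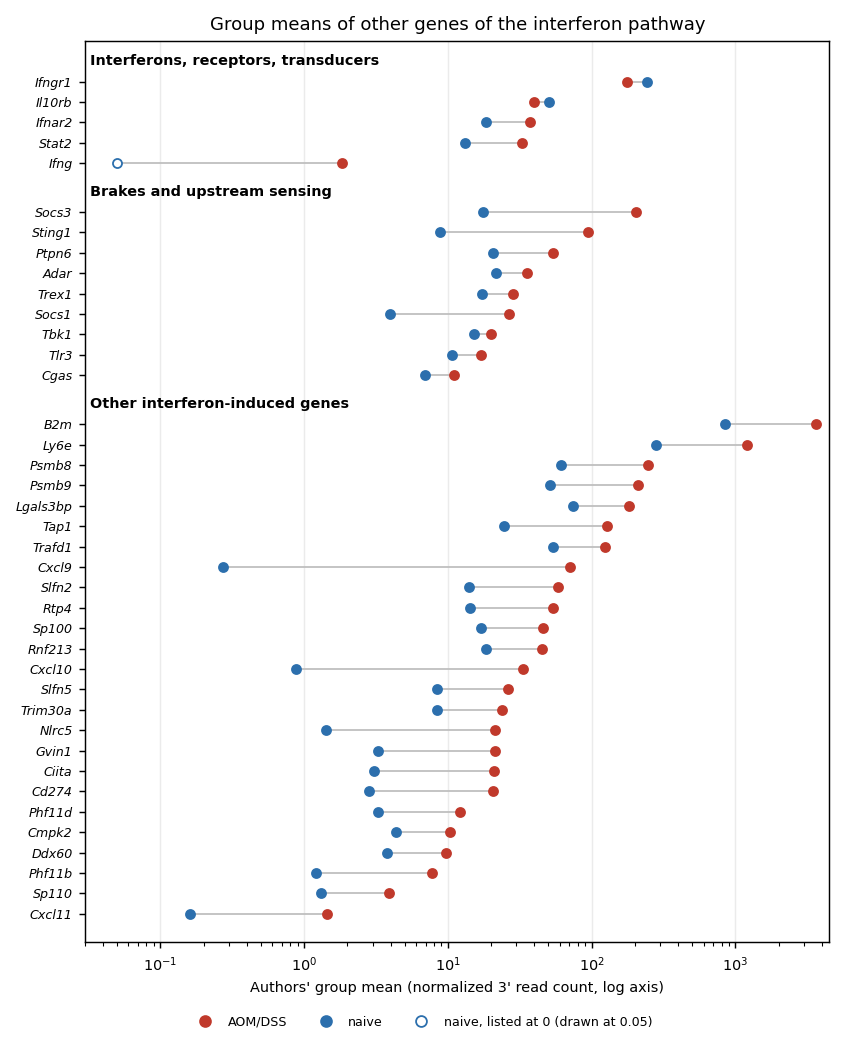
Authors' group means of the listed genes of 3 fixed lists, with the normalized 3′ read count on a log axis; red points are AOM/DSS, blue points naive, and the open point marks Ifng, listed at 0 in naive tissue. Red lies to the right of blue except for Ifngr1 and Il10rb.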

How the data were processed

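3′ mRNA libraries were made from colon tissue of 7 AOM/DSS and 4 naive mice with the QuantSeq kit of Lexogen. Per the study's methods, the authors trimmed adapters, mapped reads to mm10 by STAR, assigned them to Ensembl transcripts, and normalized and compared gene counts in Partek Flow. The submitters' notes add cutadapt. The normalization, the strand setting of the counting and the scale on which means were taken are not given in the sources used. The deposited table holds the authors' least-squares mean signal per group, and these group means were used as normalized values. Only 6 means lie between 0.001 and 0.01, and lower values lie at about 0.0001, which was taken to stand for 0. A mean under 0.001 was called 0, and no fold is printed for such a gene. The 3 members at 0 in naive tissue still count among those at least 2-fold or 4-fold higher and in the median of 2.11. They also count in the medians of members with and without an ISRE match. The table also holds the authors' p-values, FDR values and folds of their own comparison. Of these only the p-values were read, to find that none listed exceeds 0.05.

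Folds are the ratio of the deposited means, AOM/DSS over naive, computed with Python 3.11.15 and pandas 2.3.3. The code was run on simulated means with known folds and no noise, which checks the arithmetic alone. Because the depth of each sample is unknown, intervals and detection limits were not given. All 78 members were found in GENCODE M21, which is on mm10. One gene of the list of signal transducers is not reported here. The members and lists were chosen with earlier results of these data known. Named genes were, in each role group, those with a mean of at least 10 and a fold of at least 4, the gene with the highest AOM/DSS mean, every gene lower in AOM/DSS and every gene listed at 0. The remaining members are given beside them so that each is accounted for. The pairing of GAS and ISRE matches was searched after it was seen. Protein sequences were not used here, so the protein motif search was not run. Transcript ends (last 500 bases) were compared by blastn, and 95% identity over 100 bases counted as near-identical. Alternatives were pseudocounts of 1 and 0.1, minimum means of 1 and 10, fold limits of 1.5 and 4, median-centring, and leaving out IRF and APOL genes or copies.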

Additional observations from a re-analysis of the deposited data

How the results depend on the processing

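The count of 65 members at least 2-fold higher in AOM/DSS became 40 of 78 with a fold limit of 4, where 19.5% of all genes passed. Under the other alternatives it lay between 46 and 73 (73 with a limit of 1.5, passed by 43.7% of all genes), with 58 when 1 was added to each mean (20.9% of all genes) and 50 when folds were centred on the median gene (25.0% of all genes). It was 47 of 60 among members with a mean of at least 10, against 19.3% of all such genes. It was 56 of 63 without the IRF and APOL genes, and 46 of 58 without the 20 members that have a near-identical transcript end elsewhere, an alternative chosen after seeing the data. These last settings left out members alone, and 31.7% of the whole table passed. No member was at least 2-fold lower under any of these. The median log2 fold lay between 1.62 and 2.24. Of the named genes, Ifi27l2b turned to -0.17 on the log2 scale under centring, and the folds of 6 (Ubd, Tgtp1, Oas3, Usp18, Gbp8 and Ido1), all with naive means under 2, shrank by more than 1.5 times when 1 was added to each mean. No paired analysis was possible because the table gives group means, and for the same reason no replicate could be left out. Genes with naive means near 1 or below are the least certain, since the depth behind them is unknown.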

Other observations

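ISRE letters were also searched in the other genes of the table. Outside the family, 948 genes with a promoter window were at least 4-fold higher in AOM/DSS. Of these, 55 held an ISRE match (5.80%), against 3.99% of all genes and 3.76% of table genes that are no members. Among the 55, 23 had a mean of at least 10 in AOM/DSS and were not at 0 in naive tissue. Examples were picked after their values were seen, and the choice leans to genes of defense and inflammation. How common such genes are among equally higher genes without a match was not counted, so no link to ISRE letters is shown. The 23 also hold Rnase1 (86.8-fold), Acsbg1 (25.8-fold), Nebl (11.8-fold), Clca3a2 (10.0-fold) and Tenm4 (9.45-fold). Apobec3, which encodes a DNA deaminase that restricts retroviruses, stood at 297 in AOM/DSS and 57.5 in naive tissue (5.16-fold). They also include the NADPH oxidase subunits Cybb (77.3 in AOM/DSS against 14.9 in naive, 5.17-fold) and Ncf1 (31.6 in AOM/DSS against 4.98 in naive, 6.35-fold), the Fc receptor Fcgr4 (40.5 in AOM/DSS against 3.39 in naive, 11.9-fold) and the lectin Clec4d (14.3 in AOM/DSS against 0.557 in naive, 25.8-fold). Other examples are the acute-phase gene Saa3 (315 in AOM/DSS against 0.874 in naive, 361-fold), the collagenase Mmp13 (67.9 in AOM/DSS against 1.72 in naive), Tnfrsf1b, a TNF receptor (87.3 in AOM/DSS against 14.8 in naive, 5.88-fold) and the proteoglycan Srgn (206 in AOM/DSS against 24.7 in naive, 8.36-fold). B2m, the light chain of MHC class I, had the highest mean of the 23, 3645 in AOM/DSS and 840.3 in naive tissue (4.34-fold).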
